A study of Homo sapiens with 2 samples.

Results

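Chromosomes 13 and 18 are the autosomes with the fewest protein-coding genes per Mb, and the regions of RNA bound by TARBP2 that lay on them are described here. All regions of the deposited list on these chromosomes were taken, on both strands, by chromosome name alone. They numbered 827 of the 23412 regions in the list (3.53%), of which 434 lay on chromosome 13 and 393 on chromosome 18. The other 20 autosomes held 21687 regions. The list came from MDA-LM2, a human breast cancer cell line selected for spread to the lung, in 1 group of 2 replicates (replicates 1 and 2 by their titles). Both carried a transiently transfected vector for myc-tagged TARBP2, so the bound protein was a tagged and introduced one. Cells were UV cross-linked 48 hours later, and RNA cross-linked to the protein was purified with an antibody against the tag and sequenced (HITS-CLIP). The list gives coordinates on hg19 and strand, with no value per replicate, no height and no control library.

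TARBP2 binds double-stranded RNA through repeated binding domains and works beside Dicer, the nuclease that cuts microRNA precursors. A cross-linking experiment can detect binding only in RNA that the cell makes. In human cells, chromosomes 13 and 18 carry long stretches with few genes, known as gene deserts, between clusters of genes. They are, with chromosome 21, the autosomes of which an extra copy can be carried to birth. Chromosome 13 is acrocentric: its short arm holds ribosomal RNA genes and satellite repeats and is not sequenced in hg19.

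The label of gene-poor chromosomes was checked against gene numbers. GENCODE 29 lists 321 protein-coding genes on chromosome 13, or 2.79 per Mb of hg19 length, and 269 on chromosome 18, or 3.45 per Mb. These were the lowest and second lowest values of the 22 autosomes, and the next was 3.93 on chromosome 4. The other 20 autosomes had a median of 5.79 and a highest value of 24.9 on chromosome 19. The annotation is on another genome build (GRCh38), so it gave gene numbers per chromosome only. Regions were therefore not placed in genes, exons or introns, and no gene is named below.

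The values below are counts and shares of 1 list. The intervals are 95% exact intervals (Poisson for counts, Clopper-Pearson for shares) and cover counting error only. They treat regions as independent, and regions close together are not, so the intervals are too narrow. No test of a difference between chromosomes was made, because the list has no replicate values, and chromosomes are compared by rank and interval.

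Regions were sparse on both chromosomes. Chromosome 13 held 3.77 regions per Mb (3.42 to 4.14), the lowest density of the 22 autosomes. Chromosome 18 held 5.03 per Mb (4.55 to 5.56), the third lowest. Chromosome 21, also poor in genes, lay between them with 4.28 (3.72 to 4.91), and its interval overlapped both. Per whole chromosome length, the intervals of chromosomes 13 and 18 did not overlap each other. The other 20 autosomes had a median of 8.07 and reached 15.97 on chromosome 19.

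The first region of chromosome 13 lay at 19048579 to 19048956 on the plus strand, and the last at 114954211 to 114954461 on the plus strand. On chromosome 18 the first lay at 114464 to 114668 on the plus strand and the last at 77841360 to 77841635 on the minus strand. The empty start of chromosome 13 lowers its density per chromosome length. Counted over the 95.9 Mb from the first to the last region, chromosome 13 held 4.53 regions per Mb and chromosome 18 held 5.06 over 77.7 Mb. On this scale they ranked lowest and second lowest, below chromosome 21 with 5.41. No intervals were computed on this scale, so the separation of chromosomes 13 and 18 was seen per whole chromosome length only.

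**Figure D1:**
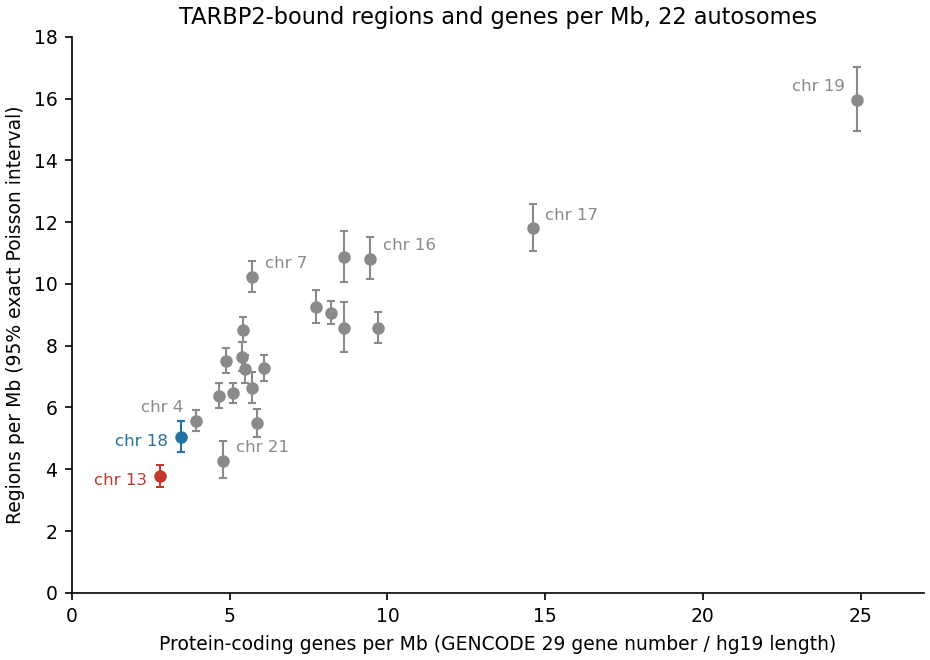
Regions per Mb (y axis, points with 95% exact Poisson intervals) against protein-coding genes per Mb (x axis) for the 22 autosomes. Chromosome 13 (red, 3.77 regions per Mb) sits at the lower left end and chromosome 18 (blue, 5.03) just above it, while chromosome 19 stands at the upper right.

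Relative to their genes, both chromosomes held more regions than the median autosome. Chromosome 13 held 135 regions per 100 protein-coding genes (rank 8 from the highest of 22) and chromosome 18 held 146 (rank 4), against a median of 119 over the other 20 autosomes. Over the 22 autosomes, regions per Mb rose with genes per Mb (Pearson r = 0.877, Spearman rho = 0.850, given as a description over chromosomes of 1 list). Without chromosomes 13 and 18 the Spearman rho was 0.805. Both densities are divided by the same chromosome length, so they are not independent of each other. The plot of densities shows both chromosomes at the low end of that relation.

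Regions on chromosomes 13 and 18 were short. The lengths ranged from 108 to 1485 nt on chromosome 13 and from 113 to 1022 nt on chromosome 18. A length just under 250 nt was the most common in the whole list, and it was also the median on both chromosomes. The quartiles were 241 and 279 nt on chromosome 13 and 242 and 273 nt on chromosome 18. The other 20 autosomes pooled had a median of 254 nt and an upper quartile of 381 nt. The 2 chromosomes thus differed from the rest in the upper part of the lengths. The 90th percentile was 420 nt on chromosome 13 and 374 nt on chromosome 18, against 464 nt or more on each other autosome.

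Long regions were few. Regions over 500 nt made up 26 of 434 on chromosome 13 (5.99%, 3.95 to 8.65%) and 16 of 393 on chromosome 18 (4.07%, 2.34 to 6.53%). The other autosomes pooled had 14.4% (14.0 to 14.9%), and the lowest of them, chromosome 15, had 8.17%. Regions over 1000 nt numbered 2 on chromosome 13 and 1 on chromosome 18. Together these were 0.363% of the 827 regions (0.0749 to 1.06%), against 2.36% (2.16 to 2.57%) on the other autosomes.

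The longest regions of chromosome 13 all lay on the minus strand. They were 1485 nt at 45124486 to 45125970, 1074 nt at 33088914 to 33089987 and 952 nt at 45074123 to 45075074. The longest of chromosome 18 was 1022 nt on the minus strand at 11642348 to 11643369, and it stood alone, 147 kb from the nearest region of either strand. It was followed by 878 nt on the minus strand at 12375224 to 12376101 and by 834 nt on the plus strand at 19199690 to 19200523, the latter 1 of a group of 3 regions.

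Since regions with close neighbours tend to be longer, lengths were also compared apart for regions with and without a near neighbour. A region was called lone when no other region lay within 10 kb on its strand, and grouped otherwise. Among lone regions, 15 of 653 on chromosomes 13 and 18 exceeded 500 nt (2.30%, 1.29 to 3.76%), against 501 of 11664 elsewhere (4.30%, 3.93 to 4.68%). Among grouped regions, 27 of 174 did (15.5%, 10.5 to 21.8%), against 26.2% (25.4 to 27.1%) of 10023. The pooled shares of chromosomes 13 and 18 were lower in each class. Taken apart, 3.24% (1.63 to 5.73%) of lone regions on chromosome 13 exceeded 500 nt, and this interval overlapped that of the other autosomes. On chromosome 18 the share was 1.27% (0.348 to 3.23%), with an interval below that of the other autosomes. Among grouped regions the shares were 15.8% on chromosome 13 and 15.2% on chromosome 18, and both intervals lay below that of the other autosomes. The median length of grouped regions was 266 nt on the 2 chromosomes together and 328 nt on the other autosomes, while the median of lone regions was the most common length in both sets. The grouped class is not matched in closeness. Of all regions, 4.72% on the 2 chromosomes had another within 1000 nt on their strand, against 20.4% on the other autosomes.

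Regions of exactly the most common length made up a larger share here than on the other autosomes pooled, though not only here. It was found for 103 regions of chromosome 13 (23.7%, 19.8 to 28.0%) and 104 of chromosome 18 (26.5%, 22.2 to 31.1%). Chromosome 18 had the highest share of the 22 autosomes and chromosome 13 ranked 4, and the other autosomes pooled had 19.4% (18.9 to 19.95%). The interval of chromosome 13 overlapped the pooled one. Between the 2 chromosomes lay chromosome 2 (25.5%, 23.4 to 27.8%) and chromosome 15 (24.2%, 20.7 to 27.9%). Among lone regions the shares were closer, at 28.2% (24.8 to 31.8%) on the 2 chromosomes and 26.2% (25.4 to 27.04%) elsewhere, with overlapping intervals.

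By strand, the minus strand of chromosome 18 had 84 such regions of 235 (35.7%, 29.6 to 42.2%), and the minus strand of chromosome 13 had 78 of 277 (28.2%, 22.9 to 33.9%). The other autosomes pooled had 26.9% on the minus strand. On the plus strand, chromosome 13 had 25 of 157 (15.9%, 10.6 to 22.6%), the highest plus-strand share of the autosomes. Chromosome 18 had 20 of 158 (12.7%, 7.91 to 18.9%). The other autosomes pooled had 7.98% (7.41 to 8.58%) on the plus strand. Among them, chromosome 8 had 12.7% (9.29 to 16.9%), an interval that overlapped those of chromosomes 13 and 18. In lone plus-strand regions the shares were 17.1% (11.0 to 24.7%) on chromosome 13, 12.3% (7.20 to 19.2%) on chromosome 18 and 9.89% (9.04 to 10.8%) elsewhere. The interval of chromosome 13 lay just above that of the other autosomes and the interval of chromosome 18 overlapped it.

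Both chromosomes held more regions on the minus strand, as the whole list did. Chromosome 13 had 277 minus-strand and 157 plus-strand regions, a minus share of 63.8% (59.1 to 68.4%). Chromosome 18 had 235 and 158, a minus share of 59.8% (54.8 to 64.7%). The shares overlapped each other and that of the other autosomes pooled (60.6%, 59.9 to 61.2%), whose values per chromosome ran from 51.8 to 68.6%. Without regions of exactly the most common length, the share was 60.1% (54.6 to 65.4%) on chromosome 13 and 52.2% (46.3 to 58.1%) on chromosome 18. The latter interval included an equal split of the strands.

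Along chromosome 13, the minus strand held the larger number in each stretch of 10 Mb from 20 Mb on, from 58.1% of 86 regions at 20 to 30 Mb to 84.6% of 13 regions at 80 to 90 Mb. The stretch from 10 to 20 Mb held 2 regions on each strand. Along chromosome 18, each stretch of 10 Mb had a minus share between 52.2 and 71.9%, the highest at 20 to 30 Mb (41 of 57 regions).

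Most regions of both chromosomes stood alone. On chromosome 13, 339 of 434 regions were lone (78.1%, 73.9 to 81.9%), and on chromosome 18, 314 of 393 (79.9%, 75.6 to 83.7%). These were the second highest and the highest shares of the 22 autosomes. Chromosome 21 followed with 76.2% (69.8 to 81.9%), which overlapped both. The other autosomes pooled had 53.8% (53.1 to 54.4%), with values from 36.3% on chromosome 19. When regions of either strand counted as neighbours, 70.5% (66.0 to 74.8%) of regions on chromosome 13 and 72.8% (68.1 to 77.1%) on chromosome 18 had none within 10 kb, against 47.4% elsewhere.

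**Figure D2:**
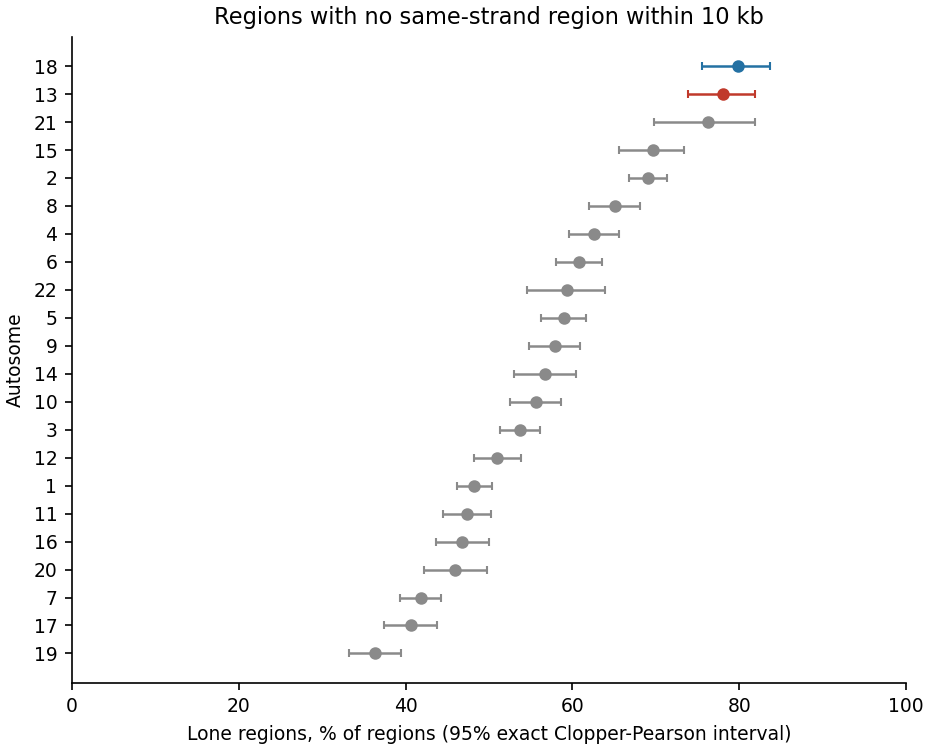
Share of lone regions (x axis, points with 95% exact Clopper-Pearson intervals) for each autosome (y axis, ordered by share). Chromosomes 18 (blue, 79.9%) and 13 (red, 78.1%) stand at the top beside chromosome 21 (76.2%), and the bottom is chromosome 19 (36.3%).

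The median distance to the nearest same-strand region was 62.8 kb on chromosome 13 (quartiles 12.3 and 221 kb) and 58.8 kb on chromosome 18 (17.5 and 191 kb). These were the longest medians of the autosomes, ahead of 49.0 kb on chromosome 21, and the other autosomes pooled had 13.6 kb. Regions farther than 100 kb from any same-strand region made up 42.2% (37.5 to 47.0%) on chromosome 13 and 40.2% (35.3 to 45.2%) on chromosome 18, against at most 32.1% on another autosome. Close pairs were correspondingly few. On chromosome 13, 22 regions had another within 1000 nt of them on their strand (5.07%, 3.20 to 7.57%), and on chromosome 18, 17 did (4.33%, 2.54 to 6.84%), against 20.4% elsewhere and at least 9.59% on each other autosome. The smallest same-strand gap was 169 nt on chromosome 13 and 120 nt on chromosome 18.

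**Figure D3:**
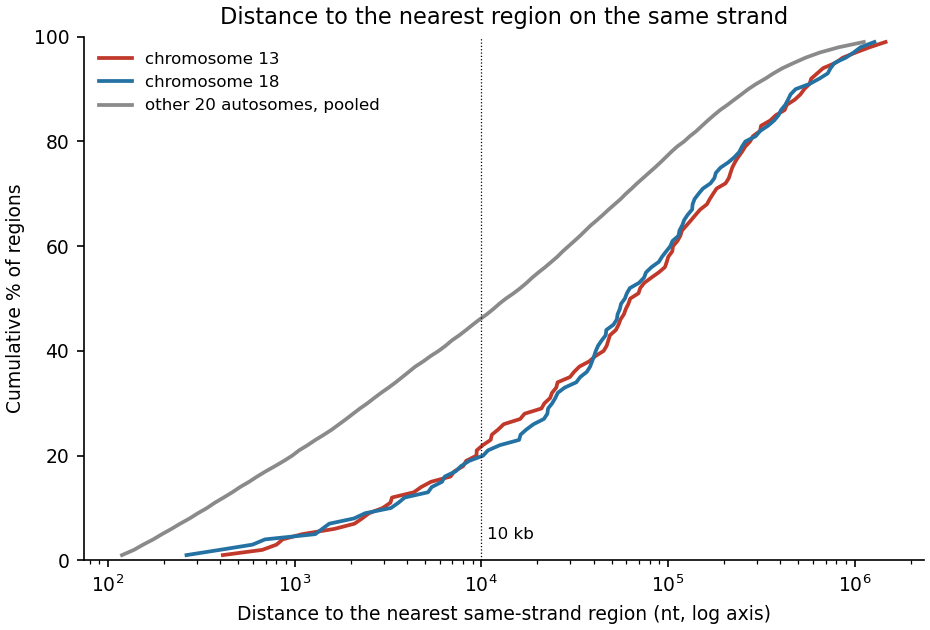
Cumulative percentage of regions (y axis) by distance to the nearest same-strand region (x axis, log scale, in nt) for chromosome 13, chromosome 18 and the other 20 autosomes pooled. The curves of chromosomes 13 and 18 run together to the right of the pooled curve and cross 10 kb (dotted line) at about 20 percent of regions, against nearly 50 percent in the pooled curve.

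Over the 22 autosomes the lone share fell as regions per Mb rose (Spearman rho = -0.946, a description). Shares were therefore also compared between 1 Mb windows that held like numbers of regions. In windows of 1 to 4 regions, the lone share was 95.1% on chromosome 13, 93.2% on chromosome 18 and 94.2% on the other autosomes, with overlapping intervals. In windows of 5 to 9 regions it was 90.4% (83.4 to 95.1%) on chromosome 13 and 90.7% (84.6 to 94.96%) on chromosome 18. The other autosomes pooled had 79.0% (77.7 to 80.4%) in such windows, and single chromosomes ran from 50.8 to 91.7%, so the range of the others included both.

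In windows of 10 to 19 regions the shares were 68.3% (59.9 to 76.0%) on chromosome 13 and 65.7% (55.4 to 74.9%) on chromosome 18, against 59.8% (58.4 to 61.1%). Both intervals overlapped that of the other autosomes, whose values per chromosome ran from 46.3 to 69.8%. In the 3 windows of chromosome 18 with 20 or more regions, 60.6% of 66 regions were lone (47.8 to 72.4%), against 31.3% (30.4 to 32.2%) of 10085 regions in such windows elsewhere and at most 49.4% on another autosome. In the 2 such windows of chromosome 13 it was 41.4% of 58 (28.6 to 55.1%). The windows of the other autosomes in this last class could hold many more regions than those of chromosomes 13 and 18, so the class is not matched in number.

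**Figure D4:**
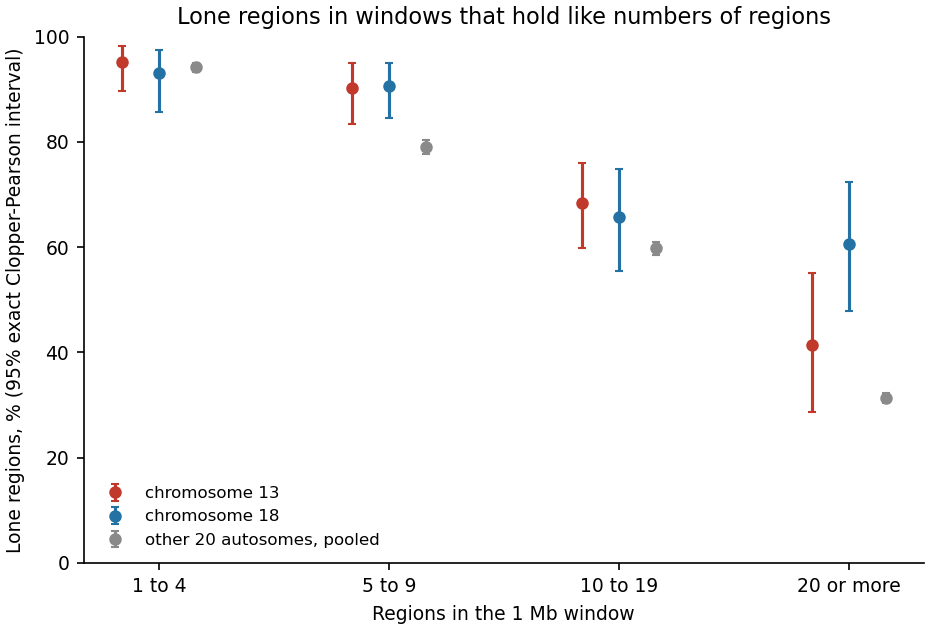
Share of lone regions (y axis, with 95% exact Clopper-Pearson intervals) in 1 Mb windows grouped by the number of regions they hold (x axis). The sets overlap in windows of 1 to 4 regions, and chromosomes 13 and 18 (90.4 and 90.7%) lie above the pooled other autosomes (79.0%) in windows of 5 to 9.

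Regions of 1 strand with gaps up to 10 kb were counted as 1 domain. Chromosome 13 had 375 domains, of which 36 held more than 1 region, and chromosome 18 had 344, of which 30 did. The mean number of regions per domain was 1.16 and 1.14, the second lowest and the lowest of the autosomes, against a median of 1.44 over the others. The largest domains held 7 regions on each chromosome, and 0 domains reached 10 regions on either. The median autosome among the others had 6 domains of 10 or more, and chromosomes 21 and 22 also had 0. Domains of 5 or more regions held 24 regions of chromosome 13 (5.53%) and 14 of chromosome 18 (3.56%), against 6.35% or more on each other autosome. Counted as domains per 100 protein-coding genes, chromosome 18 (128) and chromosome 13 (117) were the highest of the 22 autosomes, with 109 on chromosome 5 next.

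The domains with the most regions on chromosome 13 lay side by side on opposite strands. A plus-strand domain at 45916429 to 45933405 held 7 regions that covered 15.8% of 16.98 kb, the longest being 747 nt. A minus-strand domain at 45900164 to 45923193 held 7 regions over 23.03 kb (11.5% covered), the longest being 525 nt. They shared 6.77 kb, from 45916429 to 45923193, which held 2 plus-strand regions and 1 minus-strand region. None of the 14 regions overlapped one on the other strand, and the smallest gap between strands was 1162 nt. None was of exactly the most common length. The other domains of 5 regions were on the minus strand, at 111335899 to 111343523 (7.62 kb, 24.6% covered) and at 50620998 to 50639802 (18.8 kb, 9.61% covered).

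On chromosome 18 both domains of 7 regions were on the minus strand. One lay at 682436 to 706942 near the start of the chromosome, over 24.5 kb, with a longest region of 612 nt. The other lay at 15258408 to 15285526, over 27.1 kb, and its regions were short, the longest being 303 nt. It ended where the longest empty stretch of the chromosome began. The third domain held 4 regions at 29496376 to 29517837 on the minus strand. Among domains of at least 3 regions, the densest coverage on chromosome 18 was in one of 3 minus-strand regions at 3006752 to 3009662, where 54.0% of 2.91 kb was covered. This domain was singled out after its values were seen.

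The share of close neighbours on the same strand was low on both chromosomes. When successive regions within 10 kb were paired whatever their strand, 55 of 80 pairs on chromosome 13 were on the same strand (68.8%, 57.4 to 78.7%) and 49 of 66 on chromosome 18 (74.2%, 62.0 to 84.2%). The other autosomes pooled had 85.4% (84.6 to 86.2%), and chromosomes 13 and 18 had the lowest and second lowest shares of the 22. Next was chromosome 21 with 33 of 42 pairs (78.6%), a share inside the intervals of both. Several others, such as chromosomes 5 (79.3%) and 15 (80.0%), lay inside the interval of chromosome 18. The pairs are not matched in closeness. Of all regions, 4.72% on chromosomes 13 and 18 had a same-strand region within 1000 nt, against 20.4% on the other autosomes. The pairs on opposite strands of chromosome 13 were 13 divergent, 9 convergent and 3 overlapping, and those of chromosome 18 were 8 divergent, 7 convergent and 2 overlapping.

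Each overlap between strands joined a lone plus-strand region and a lone minus-strand region. On chromosome 13 they lay at 20939737 to 20940190, 57733348 to 57733815 and 101024884 to 101025179, taking the outer ends of each pair. On chromosome 18 they lay at 2842055 to 2842543 and 77772931 to 77773402. In 1 pair of each chromosome the overlap reached 50 nt.

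The fullest windows of both chromosomes held a smaller share of the regions than those of most other autosomes. In fixed 1 Mb windows from the start of the chromosome, the median window between the first and the last region held 3 regions on both. On chromosome 13, 13 of these 96 windows held 10 or more regions and 13 held 0. On chromosome 18, 10 of 78 held 10 or more and 8 held 0. The fullest 10% of windows held 166 regions of chromosome 13 (38.2%) and 141 of chromosome 18 (35.9%), ranks 15 and 18 from the highest of the 22. The other autosomes ran from 26.5 to 51.6%, with a median of 44.3%. The variance of the window counts was 6.55 times their mean on chromosome 13 and 5.44 times on chromosome 18, against a median of 13.7 on the others, and chromosome 21 was lower (4.53).

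The densest window of chromosome 13 was 45000001 to 46000000, with 37 regions (15 plus, 22 minus) in 21 domains. It contained both domains of 7 regions and 2 of the 3 longest regions named above. The next were 50000001 to 51000000 with 21 regions (7 plus, 14 minus) and 28000001 to 29000000 with 18 (11 plus, 7 minus). On chromosome 18, 3 windows tied at 22 regions. They were 12000001 to 13000000 (6 plus, 16 minus), 19000001 to 20000000 (10 plus, 12 minus) and 21000001 to 22000000 (9 plus, 13 minus). Of their regions 10, 15 and 15 were lone, so these windows were filled by separate regions more than by 1 domain. Only chromosome 21, with 19, had a lower maximum among the autosomes, and the median of the others was 64.5. With windows shifted by 500 kb (20 regions) or of 2 Mb (15.5 per Mb), chromosome 18 had the lowest maximum of the 22, below 21 and 18 per Mb on the next.

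**Figure D5:**
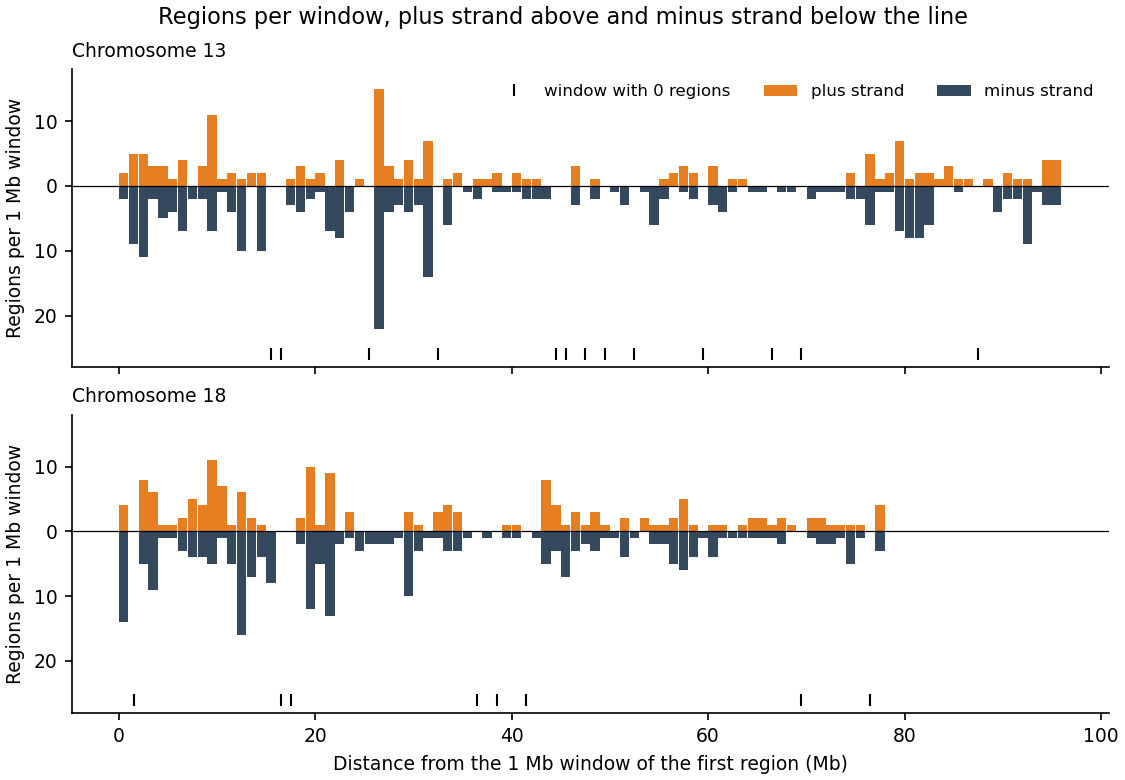
Regions per 1 Mb window (y axis, plus strand upward and minus strand downward) by distance in Mb from the window of the first region (x axis), with ticks for windows of 0 regions. Chromosome 13 has 1 window that stands out with 37 regions, while chromosome 18 has 3 windows of 22 in its first part and none above 13 beyond them.

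The fullest stretches of 10 Mb lay in the first part of each chromosome, though counts did not fall steadily from there. On chromosome 13, the stretches of 10 Mb at 20 to 30 Mb and 40 to 50 Mb held 86 and 84 regions, against 18, 29 and 13 at 60 to 70, 70 to 80 and 80 to 90 Mb. Counts were higher again toward the end, with 48 regions at 90 to 100 Mb (as many as at 30 to 40 Mb), 34 at 100 to 110 Mb and 28 in the rest of the chromosome. From 60 to 80 Mb each of the 47 regions was lone. On chromosome 18, the first 10 Mb held 88 regions and the next 84, against 26 at 30 to 40 Mb and 23 at 60 to 70 Mb, where each region was lone. Between these lay 48 regions at 40 to 50 Mb and 40 at 50 to 60 Mb.

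Relative to the span from the first to the last region, empty stretches of at least 1 Mb were frequent on both chromosomes. Stretches of at least 1 Mb without a region on either strand numbered 23 on chromosome 13 and summed to 35.2 Mb, or 36.7% of the span from the first to the last region. This was the highest share of the autosomes. Chromosome 18 had 18 such stretches of 27.2 Mb in all (35.0%, the third highest), behind chromosome 11 (36.0%). The median share of the others was 24.7%. Per 100 Mb of span, the stretches numbered 24.0 on chromosome 13 and 23.2 on chromosome 18 (ranks 1 and 3), against a median of 14.6. Shares of empty 1 Mb windows within the span stood out less. They were 13.5% on chromosome 13 (rank 5) and 10.3% on chromosome 18 (rank 9). The others had a median of 9.46% and reached 17.6% on chromosome 9. The longest stretch of chromosome 13 was 2.72 Mb, the second shortest maximum among the autosomes that had any. The empty start of chromosome 13 lies before its first region and was left out, while a stretch that spans the centromere of chromosome 18 was counted. The maxima of the autosomes, their shares of the span and their stretches per 100 Mb are thus not all of like stretches.

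On chromosome 13 the longest stretches ran from 62509538 to 65231126 (2.72 Mb), from 84087688 to 86392918 (2.31 Mb) and from 33763827 to 36013828 (2.25 Mb). On chromosome 18 the longest ran from 15285527 to 18724708 (3.44 Mb). It spans the centromere, which hg19 carries largely as unsequenced bases. The next ran from 37258721 to 39527654 (2.27 Mb) and from 35175865 to 37258519 (2.08 Mb). They were separated by 1 minus-strand region of 201 nt at 37258520 to 37258720, the region of chromosome 18 farthest from any other. On chromosome 13 the region farthest from any other was 131 nt on the minus strand at 86392919 to 86393049, 1.51 Mb from the next and at the end of the second longest stretch.

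Single strands were empty for longer. The plus strand of chromosome 13 had no region from 82923291 to 93316244, a stretch of 10.4 Mb in which the minus strand had 10. Among the longest plus-strand stretches of the autosomes it ranked 4, behind those of chromosomes 1, 9 and 16. Stretches around centromeres were not set apart in this ranking. The longest on the minus strand of chromosome 13 was 4.27 Mb, from 104110192 to 108379201, with 3 plus-strand regions inside. On chromosome 18 the longest plus-strand stretch was 5.44 Mb, from 23715077 to 29153756, with 10 minus-strand regions inside, and the longest on the minus strand was the stretch around the centromere.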

How the data were processed

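Per the submitters' processing notes, reads were aligned with Bowtie to hg19. Which version was used, how regions were called and filtered, and how reads with several alignments were handled is not stated in any source used here. The score column the authors deposited holds 1 throughout and was not used. The authors deposited region coordinates in nt with starts counted from 0, and starts are printed here counted from 1. The titles give replicates 1 and 2, and nothing says whether they were separate cultures; depth per sample is unknown.

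Chromosome lengths of hg19 came from the R package GenomeInfoDb 1.38.1, gene numbers per chromosome from GENCODE 29 (GRCh38). A region belonged to the window of its midpoint. Gaps count the bases between regions. Named places were, per chromosome, the 3 longest regions, 3 densest windows, 3 longest empty stretches, 3 largest domains, all overlaps between strands, the farthest region, and the first and last. The members and lists were chosen with earlier results of these data known. The interval functions were checked on simulated data. Assignment to genes was planned and not run. The software was Python 3.11.15 with scipy 1.17.1, numpy 2.4.6, matplotlib 3.10.9 and pandas 2.3.3.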

Additional observations from a re-analysis of the deposited data

How the results depend on the processing

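Of 50 alternative values, 19 stayed inside the interval of the value reported or within 1.5 times a count. Regions per Mb of chromosome 13 became 4.53 over the span, 5.23 per occupied window, 3.26 with domains counted once and 2.87 without regions of the most common length, the lowest of the autosomes in each. Those of chromosome 18 became 5.61 per occupied window, 4.41 with domains counted once (rank 5 from the lowest) and 3.70 without that length. With numbers of the names counted, an alternative chosen after seeing the data, the values were 38.8 and 47.2 per Mb (ranks 3 and 8 from the lowest). With domains counted once, regions per 100 genes became 117 on chromosome 13 and 128 on chromosome 18. Without that length the median length became 252 and 253 nt, and the minus share of chromosome 18 became 52.2%.

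The lone share of chromosomes 13 and 18 became 85.0 and 87.3% at 5 kb, 71.2 and 73.0% at 20 kb, 70.5 and 72.8% over either strand, and 90.4 and 90.7% in windows of 5 to 9 regions, chosen after seeing the data. In the first 3 of these settings the 2 chromosomes ranked highest, and in the last they ranked 3 and 2. The densest window of chromosome 13 fell from 37 regions to 25 with windows shifted by 500 kb, to 18.5 per Mb in windows of 2 Mb and to 21 with domains counted once. That of chromosome 18 went from second lowest of the autosomes to lowest, with 20 regions in shifted windows and 15.5 per Mb in windows of 2 Mb. The share of empty windows of chromosome 13 was 28.4% over the whole chromosome and 13.5% between the first and the last region, chosen after seeing the data. Empty stretches of at least 2 Mb numbered 4 on each chromosome. Domains of more than 1 region on chromosome 13 numbered 23 at 5 kb. Overlaps of at least 50 nt numbered 1 on each chromosome. For these shifts, the cause was not tested in any comparison here.

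No paired analysis was possible because the list holds no value per replicate, so no replicate was left out. A stricter score was not applied, as the score has 1 value. The share of regions inside genes and its alternative were not run, since an annotation of hg19 was not used here.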

Other observations

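Each region name ends in a number, and on every autosome these numbers increase with position within a strand. No source used here says what a number without a listed region stands for. From the first to the last listed number on each strand, chromosome 13 had 4474 numbers and chromosome 18 had 3684. Of these, 9.70% (95% exact Clopper-Pearson interval 8.85 to 10.6%) were listed on chromosome 13, the lowest share of the autosomes. On chromosome 18 the share was 10.7% (9.69 to 11.7%), the third lowest, with chromosome 21 between them at 10.4%. The other 20 autosomes pooled had 15.6% (15.4 to 15.8%). Per Mb the numbers differed less than the listed regions did. Chromosome 13 had 38.8 numbers per Mb (rank 20 of 22) and chromosome 18 had 47.2 (rank 15), against a median of 51.7 on the others. On both chromosomes the listed share was higher on the minus strand, at 10.5% against 8.57% on chromosome 13 and 11.5% against 9.65% on chromosome 18, with overlapping intervals.

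Stretches without a listed region were not without numbers. The plus-strand stretch of 10.4 Mb on chromosome 13 held 114 unlisted numbers. The stretch of 2.72 Mb from 62509538 held 25 on the minus strand, and the stretch of 3.44 Mb around the centromere of chromosome 18 held 22 on the minus strand. Taking all stretches of at least 1 Mb between successive regions of 1 strand, chromosome 13 had 57 of them with 14.3 unlisted numbers per Mb of strand, and none had fewer than 8 numbers. Chromosome 18 had 47 with 12.7 per Mb and none had fewer than 6. The other autosomes had 10.7 per Mb in such stretches, with 0 to 112 numbers in single ones. Stretches around centromeres were not set apart, and the empty start of chromosome 13 was not among its stretches, so these values are not of like stretches. Outside stretches of at least 1 Mb, numbers per Mb of strand were 35.5 on chromosome 13, 36.0 on chromosome 18 and 41.4 on the others.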
